A study of Homo sapiens with 6 samples.

Results

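The genes of fibroblast growth factor (FGF) signalling were examined in UE7T-9 cells, a human mesenchymal stem cell line from bone marrow, with and without knockout of SRRM4. They were taken by a rule on gene symbol and biotype, as the protein-coding genes named FGF with a number, FGFR1 to FGFR4, FGFRL1, the FGF binding proteins FGFBP1 to FGFBP3, the Sprouty genes SPRY1 to SPRY4, the SPRED genes SPRED1 to SPRED3, and KL, KLB, DUSP4, DUSP6, ETV4 and ETV5. This gave 43 of the 58735 genes in the count table. Control cells were UE7T-9 labelled as wild type (3 libraries). The SRRM4 KO cells (3 libraries) were UE7T-9 that had received a lentiviral CRISPR vector with a gRNA against SRRM4, a neural regulator of splicing. They were selected with puromycin and then diluted to single cells, so the KO group is 1 clone. Neither a vector nor selection is described for the control libraries. The effect of the knockout therefore cannot be told apart from those of the vector, the selection and the cloning. Both groups were grown in serum-containing medium without bone, and the study describes the knockout as not complete. Nothing in the labels says that the 3 libraries of a group came from separate cultures, so p-values measure the spread between these libraries, which may be technical.

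FGFs are secreted proteins that bind receptor tyrosine kinases together with heparan sulfate, or with a Klotho coreceptor in the case of the hormone-like members, and the receptors signal through RAS, MEK and ERK. ERK activity in turn induces its own inhibitors, among them the Sprouty and SPRED proteins and the phosphatases DUSP4 and DUSP6, as well as the ETS transcription factors ETV4 and ETV5. In bone marrow stromal cells the pathway is known for sustaining proliferation, and FGF2 is a common supplement of their culture.

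The libraries held 21496117 to 23868323 counts, and a count of 0 allows up to 3 counts, or 0.123 to 0.139 CPM (counts scaled to library size, here after TMM normalization). This limit covers counting error only. Counts were found for 22403 genes in control replicate 1 and for 20613 and 20674 in the other controls, so replicate 1 was unlike them. SRRM4 had 0 counts in all 6 libraries, so its RNA gives no check of the knockout. Of 15341 genes tested with edgeR's quasi-likelihood test and Benjamini-Hochberg adjustment, 1932 (12.6%) were called, that is, past 0.05 in adjusted p and past 1 in log2 fold change, and 41.6% had an adjusted p under 0.05 at any fold. The summed level of 10 mesenchymal marker genes, all of them detected, was 41492 to 45470 CPM in control and 16998 to 18938 CPM in SRRM4 KO cells, with 6 of the 10 called lower. COL1A1 and COL1A2 carried most of this sum, at means of 27881 and 12196 CPM in control. Only NT5E and VIM of the list rose, with log2 fold changes of 0.52 and 0.36. All the others fell, the collagens among them, with log2 fold changes from -3.36 to -0.34. That of 6 endothelial markers was 22.5 to 26.3 CPM and 4.68 to 5.998 CPM, mostly from TEK and KDR, both called lower, with CDH5 at 1 count or none in each library. Hematopoietic markers lay at 20.3 to 21.4 CPM and 17.9 to 21.1 CPM, mostly from CD14, with CD3E at 0. Epithelial markers lay at 97.5 to 119 CPM and 101 to 108 CPM, mostly from KRT18, with EPCAM at no more than 2 counts. Neural markers lay at 70.4 to 90.7 CPM and 64.6 to 69.5 CPM, mostly from MAP2, with STMN2 at 0. At 3 counts or fewer in every library were 4 of 8 hematopoietic, 2 of 6 endothelial, 1 of 6 epithelial and 1 of 7 neural markers. Further markers of these lists were thus detected. The part of these differences in the results on FGF genes was not tested. In bulk RNA, fewer cells expressing a gene and less RNA per cell cannot be told apart.

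UE7T-9 cells expressed a small set of FGF genes in both groups. Of the 43 genes, 9 had no count in any library (FGF3, FGF4, FGF6, FGF9, FGF16, FGF19, FGF23, FGFR2 and FGFBP2), 13 had counts too low to be tested, and 21 were tested. The secreted ligands FGF5, FGF2 and FGF1, the receptors FGFR1 and FGFRL1, most of the feedback inhibitors and the transcription factor ETV5 made up most of the expressed set, while the Klotho coreceptors KL and KLB had at most 5 counts in a library. Of the 21 tested genes, 4 were called (19.0%): DUSP4 and FGFBP3 were higher in SRRM4 KO cells, and FGF7 and FGF14 were lower. The same call was made for 12.6% of all tested genes, with 5.45% higher and 7.14% lower. At an adjusted p under 0.05 without a threshold on the fold change, 9 of the 21 were higher and 2 were lower, against 20.7% and 20.9% of all tested genes. The median log2 fold change was 0.24 for the 21 genes and -0.01 for all tested genes. Groups did not overlap in 13 of the 21 (61.9%), 11 higher and 2 lower, against 51.8% of all tested genes, 25.9% in each direction. FGF7 and FGF17 passed the filter on low counts only through the control libraries, where they are high, so the call of FGF7 is no independent support for a fall, and nothing is read from the count of 4 against the share of all genes.

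**Figure D1:**
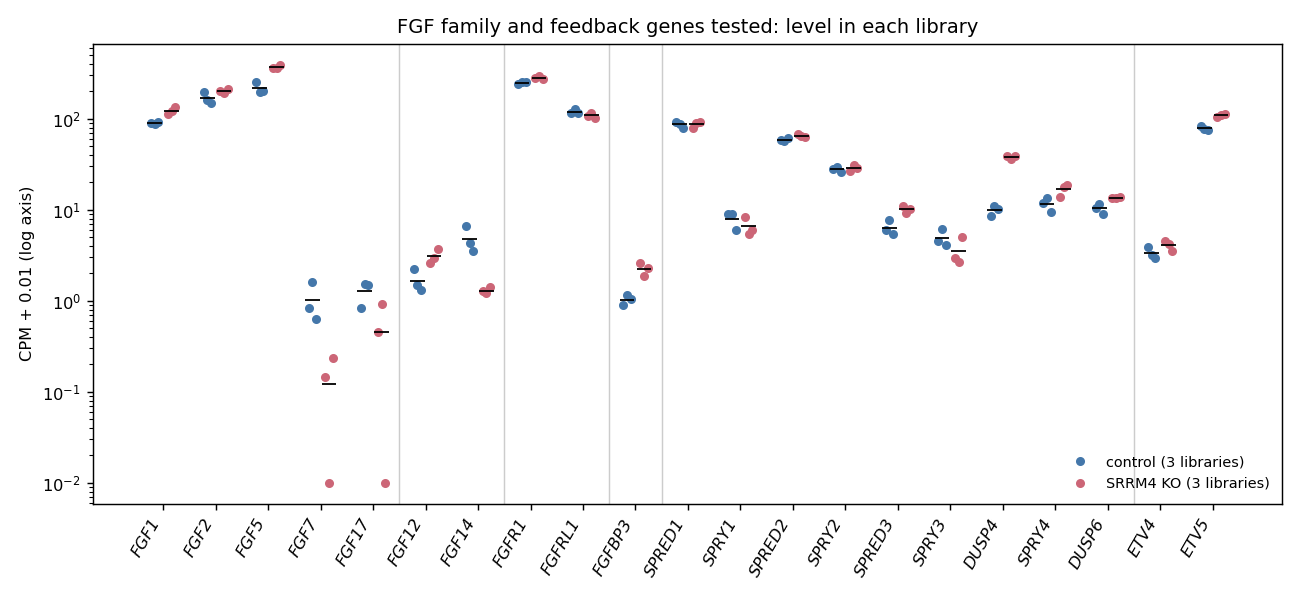
Level of each of the 21 tested genes in the 6 libraries, in CPM plus 0.01 on a logarithmic axis, with 3 points and a line at the mean for each group and vertical lines between roles. FGF5 leads the ligands and FGFR1 the receptors, and the KO points of DUSP4 and FGFBP3 lie above, and those of FGF7 and FGF14 below, all their controls.

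The highest ligand by count was FGF5, which is known for ending the growth phase of the hair cycle. FGF5 (ENSG00000138675, chromosome 4, 80266599 to 80336680, GRCh38) was at 251, 197 and 203 CPM in control replicates 1 to 3 and at 364, 361 and 390 CPM in the SRRM4 KO libraries, so the lowest KO library lay well above the highest control. Its mean rose 1.71-fold, from 217 ± 29.7 to 372 ± 16.1 CPM (SD, n = 3; log2 fold change 0.78, SE 0.094, adjusted p = 8.76e-06, edgeR). Leaving out 1 library at a time gave 0.71 to 0.89. FGF1, a ligand for all FGF receptors that lacks a classical signal peptide, rose by less. It was at 89.3, 88.1 and 92.3 CPM in control and at 113, 121 and 134 CPM in SRRM4 KO, with no overlap (log2 fold change 0.45, SE 0.088, adjusted p = 0.000729, edgeR). FGF2, the basic FGF, also lacks a signal peptide. Its control libraries were at 198, 162 and 148 CPM and its KO libraries at 199, 191 and 211 CPM, so control replicate 1 reached into the KO range and the groups overlapped. The log2 fold change of FGF2 was 0.24 (SE 0.10), which did not pass (adjusted p = 0.0686, edgeR). Without control replicate 1, the library that stood apart, it was 0.37 and passed (adjusted p = 0.000128), while the 5 other fits that left out 1 library did not pass and went down to 0.15. With no filter on low counts FGF2 also passed (adjusted p = 0.0331, edgeR).

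Per length of gene, FGF5, FGF2 and FGF1 together led the 18 secreted ligands. They accounted for 98.7% to 99.3% of the summed RPKM (CPM per kilobase of gene length) of these ligands in control. In SRRM4 KO they accounted for 99.6% to 99.8%. The summed RPKM was 79.1 ± 8.34 (SD, n = 3) in control and 115 ± 5.77 (SD, n = 3) in SRRM4 KO. FGF5 made up 45.7% ± 1.52 (SD, n = 3) of it in control and 53.8% ± 0.386 in SRRM4 KO. The share of FGF2 was 31.5% ± 1.79 and 25.7% ± 0.563, and that of FGF1 was 21.7% ± 2.36 and 20.2% ± 0.869. FGF5 was therefore the largest single part of the ligand RNA in every library, and its part was larger in the KO libraries than in any control. With 3 libraries a group, the smallest p of an exact permutation test is 0.10, so shares are given without a test.

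**Figure D2:**
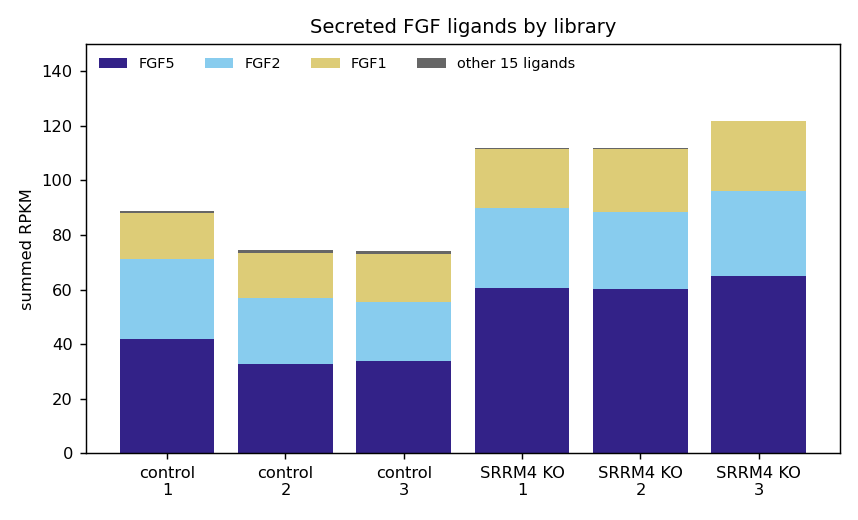
Summed RPKM of the 18 secreted FGF ligands in each of the 6 libraries, stacked as FGF5, FGF2, FGF1 and the other 15 ligands, on an axis from 0. The stacks average 79.1 in control and 115 in SRRM4 KO, and the FGF5 block grows from 36.2 to 62.0.

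The other tested ligands were low. FGF7 (ENSG00000140285, chromosome 15, 49423096 to 49488775), the keratinocyte growth factor that mesenchymal cells make for epithelia, had 18, 34 and 14 counts in control and 3, 0 and 5 counts in SRRM4 KO. Every KO library was below every control library. The mean of FGF7 was 1.01 ± 0.50 CPM against 0.121 ± 0.114 CPM (SD, n = 3), and its log2 fold change was -3.04 (SE 0.77, adjusted p = 0.00524, edgeR). The KO mean is under the limit that 3 counts set, so the size of this fall is poorly determined, and fits that left out 1 library gave -3.86 to -2.45. Against the fold threshold itself (glmTreat) its adjusted p was 0.0636. FGF17 had 18, 33 and 33 counts in control and 10, 22 and 0 in SRRM4 KO, which overlapped. Its log2 fold change of -1.47 (SE 0.71) did not pass (adjusted p = 0.114, edgeR), and fits that left out 1 library gave -2.49 to -0.92 with adjusted p from 0.0383 (without SRRM4 KO replicate 2) to 0.246. With no filter on low counts it was called lower, at -1.48 (adjusted p = 0.0405, edgeR).

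Among the ligands too low for the test, FGF10, another epithelial ligand of mesenchymal cells, was at 0 in all controls and at 7, 5 and 10 counts in SRRM4 KO, which is at least 2.36-fold higher than the 3 counts per library that a count of 0 allows. FGF18, a ligand known in cartilage and bone, went the other way. It had 5, 10 and 11 counts in control against 1, 1 and 0 in SRRM4 KO. The control mean of FGF18 was 3.01-fold the level of 3 counts per KO library, a limit that holds only for a count of 0. Both were at the edge of detection, and with no filter on low counts FGF10 passed (adjusted p = 0.0155, edgeR) while FGF18 did not (adjusted p = 0.0545). Without SRRM4 KO replicate 1 or SRRM4 KO replicate 3, FGF18 entered the test, only through the control libraries, and its call there is no independent support for a fall. FGF8, FGF20, FGF21 and FGF22 had at most 3 counts in any library.

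FGF11 to FGF14 are intracellular FGF homologous factors, which bind voltage-gated sodium channels and are not secreted. FGF14 (ENSG00000102466, chromosome 13, 101710804 to 102402457, minus strand) had 145, 92 and 78 counts in control and 28, 29 and 31 in SRRM4 KO. The KO libraries lay close together and far below all controls. It fell from 4.82 ± 1.67 to 1.29 ± 0.112 CPM (SD, n = 3; log2 fold change -1.90, SE 0.31, adjusted p = 0.00015, edgeR), with -2.09 to -1.59 when 1 library was left out. FGF14 shares 4354 of its 13759 exon bases with ITGBL1 on the opposite strand, which averaged 2488 counts and had a log2 fold change of -1.61. The libraries are not stranded, so reads of these genes cannot be told apart there. FGF12 moved in the other direction. Its control libraries had 48, 32 and 29 counts and its KO libraries 57, 71 and 82, without overlap. It rose with a log2 fold change of 0.88 (SE 0.32, adjusted p = 0.0384, edgeR), but did not pass without control replicate 2, control replicate 3, SRRM4 KO replicate 2 or SRRM4 KO replicate 3 (adjusted p up to 0.149). Without control replicate 1 it was called, at 1.13 (adjusted p = 0.0165, edgeR). FGF13 was at 0 in all controls and at 9, 4 and 10 counts in SRRM4 KO, at least 2.48-fold higher than 3 counts per library (adjusted p = 0.0125 with no filter on low counts, edgeR), and FGF11 had a single count in 1 control library.

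Neither tested receptor passed the test. FGFR1, the receptor kinase that mesenchymal cells mainly use, was at 243, 251 and 252 CPM in control and at 279, 292 and 271 CPM in SRRM4 KO. The groups did not overlap, yet the difference was small (log2 fold change 0.17, SE 0.074, adjusted p = 0.0739, edgeR). It passed without control replicate 1, at an adjusted p of 0.0394. FGFR1 made up 99.4% of the summed RPKM of FGFR1 to FGFR4 in control and 99.6% in SRRM4 KO, since FGFR2 had no count and FGFR3 and FGFR4 had at most 15 and 7 counts in a library. FGFRL1, a receptor-like protein that lacks the kinase domain, was at 115, 128 and 115 CPM in control and at 108, 117 and 102 CPM in SRRM4 KO, which overlapped (log2 fold change -0.13, SE 0.088, adjusted p = 0.249, edgeR). FGFBP3 (ENSG00000174721, chromosome 10, 91906589 to 91909483), which carries FGFs out of the matrix, had 19, 25 and 23 counts in control and 57, 45 and 50 in SRRM4 KO. All KO libraries were above all controls. FGFBP3 rose 2.17-fold from 1.02 ± 0.142 to 2.23 ± 0.358 CPM (SD, n = 3), with a log2 fold change of 1.12 (SE 0.36, adjusted p = 0.0221, edgeR). The call was lost without control replicate 1 (adjusted p = 0.0624), control replicate 3 (0.0506), SRRM4 KO replicate 1 (0.0851) or SRRM4 KO replicate 3 (0.056). FGFBP1 had at most 3 counts in a library.

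**Figure D3:**
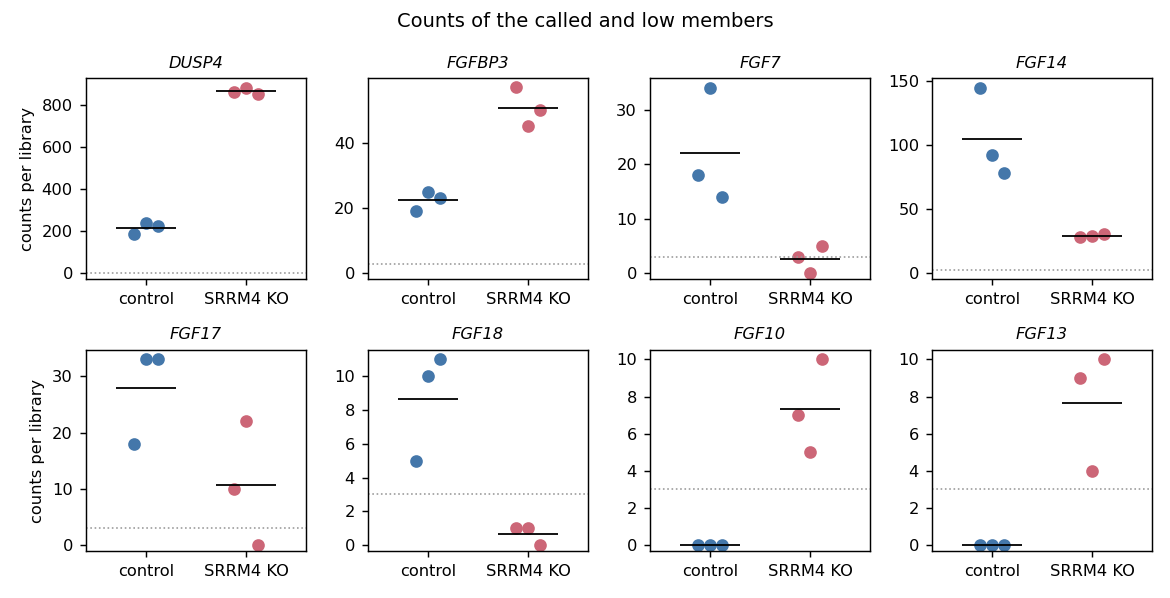
Counts per library of 8 low or called genes (DUSP4, FGFBP3, FGF7, FGF14, FGF17, FGF18, FGF10 and FGF13), each point 1 library, the line the group mean and the dotted line 3 counts. DUSP4 and FGFBP3 sit higher in the 3 KO libraries, FGF7 and FGF14 sit lower, and FGF10 and FGF13 are at 0 in every control.

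All 9 feedback inhibitors were tested. Of these, 4 rose at an adjusted p under 0.05 (DUSP4, DUSP6, SPRY4 and SPRED3), 0 fell and 5 did not pass by edgeR's quasi-likelihood test, against 20.7% higher and 20.9% lower among all tested genes, and the median log2 fold change was 0.15. DUSP4 (ENSG00000120875, chromosome 8, 29333064 to 29350668), a nuclear phosphatase that inactivates ERK, changed most. It was at 8.53, 11.0 and 10.1 CPM in control and at 38.6, 36.1 and 38.7 CPM in SRRM4 KO, so every KO library lay far above every control. DUSP4 rose 3.83-fold, from 9.87 ± 1.24 to 37.8 ± 1.46 CPM (SD, n = 3), with a log2 fold change of 1.94 (SE 0.13, adjusted p = 1.54e-08, edgeR). Fits that left out 1 library gave 1.84 to 2.02. DUSP6, the cytoplasmic phosphatase of ERK, was at 10.4, 11.6 and 9.05 CPM in control and at 13.3, 13.4 and 13.95 CPM in SRRM4 KO. The groups did not overlap, but the rise of 0.39 (SE 0.15, log2 scale, adjusted p = 0.0425, edgeR) passed in 1 of the 6 fits that left out 1 library, the one without control replicate 2, and in 4 of 13 alternatives that refit the test without a change of threshold, with adjusted p up to 0.156. DUSP4 made up 37.9% ± 3.57 of the summed RPKM of the pair in control and 64.0% ± 0.846 in SRRM4 KO (SD, n = 3). By the full gene lengths, the order of the pair was thus reversed between the groups. DUSP6 shares 1875 of its 4632 exon bases with AC024909.2 on the opposite strand, which averaged 5.33 counts. Reads of these genes cannot be told apart there, so the shares of the pair and their order are uncertain.

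The Sprouty proteins block signalling between the receptor and RAS. SPRY4 (ENSG00000187678) was at 11.9, 13.3 and 9.32 CPM in control and at 13.96, 17.6 and 18.5 CPM in SRRM4 KO, without overlap. It rose with a log2 fold change of 0.54 (SE 0.16, adjusted p = 0.0149, edgeR), and passed in 3 of the 6 fits that left out 1 library, but not without control replicate 3, SRRM4 KO replicate 2 or SRRM4 KO replicate 3 (adjusted p up to 0.0761). SPRY2, which led the family with 68.3% of its RPKM in control and 67.5% in SRRM4 KO, had overlapping groups at 27.97 ± 1.88 and 29.01 ± 2.20 CPM (SD, n = 3). SPRY1 (7.95 and 6.56 CPM) and SPRY3 (4.94 and 3.54 CPM) had lower means in SRRM4 KO and overlapping groups. Neither passed, except that SPRY3 passed without SRRM4 KO replicate 3, at -0.83 (adjusted p = 0.0289, edgeR), with -0.29 the other end of the range over libraries left out. The SPRED proteins hold RAS in check at the membrane. SPRED3, the least abundant of them, was at 5.90, 7.61 and 5.33 CPM in control and at 10.9, 9.20 and 10.2 CPM in SRRM4 KO. These did not overlap, and the rise of 0.69 (SE 0.18, log2 scale, adjusted p = 0.00576, edgeR) passed in all 6 fits that left out 1 library. SPRED1 was level, at 86.9 ± 6.19 and 87.1 ± 6.35 CPM (SD, n = 3), and SPRED2 was at 58.7 ± 2.66 and 65.3 ± 3.10 CPM (adjusted p = 0.197, edgeR). Of the 3 SPRED genes, only the lowest passed.

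ETV5 and ETV4 are ETS transcription factors that FGF signalling induces through ERK. ETV5 (ENSG00000244405) was at 83.3, 77.8 and 75.1 CPM in control and at 105, 111 and 114 CPM in SRRM4 KO, without overlap. Its log2 fold change of 0.48 (SE 0.085, adjusted p = 0.000332, edgeR) stayed under 0.05 in adjusted p in 13 of 13 alternatives that refit the test without a change of threshold. ETV4, far lower at 3.33 ± 0.483 and 4.04 ± 0.503 CPM (SD, n = 3), did not pass (adjusted p = 0.371, edgeR).

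**Figure D4:**
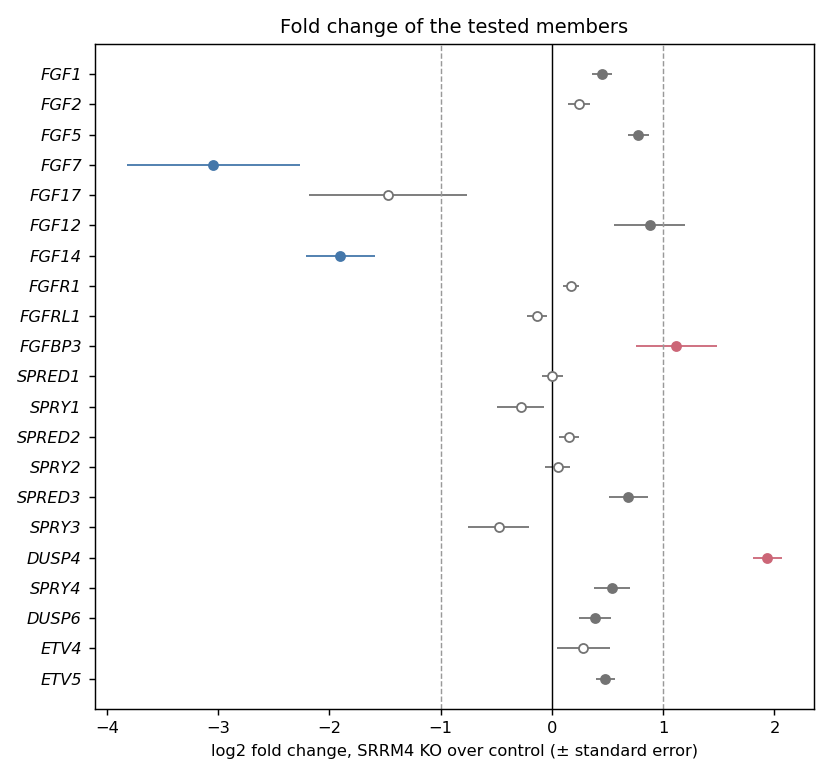
Log2 fold change (SRRM4 KO over control) with its SE for the 21 tested genes, with dashed lines at 1 and -1, filled points for an adjusted p under 0.05, red for called higher and blue for called lower. DUSP4 (1.94) and FGFBP3 (1.12) lie past the upper line, and FGF14 (-1.90) and FGF7 (-3.04) past the lower one.

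Start regions are shown as the 250 bases upstream of a start annotated in RefSeq (GRCh38.p14), so that the letters can be read beside the values. They are those of the called genes FGFBP3 and FGF14 and of FGF5, the most abundant ligand, chosen after their values were seen. Windows with more than 30 bases in an annotated exon are not shown, and among these are all those of FGF7, DUSP6, SPRED3 and SPRY4. Both windows of FGF5 are printed (chr4:80266338-80266587 and chr4:80268018-80268267, plus strand), the only one of FGFBP3 (chr10:91909487-91909736, minus strand), and of the 4 of FGF14 the outermost (chr13:102402444-102402693, minus strand), each 5′ to 3′ in the direction of transcription. Capitals mark a match to a searched motif.
FGF5, outer start: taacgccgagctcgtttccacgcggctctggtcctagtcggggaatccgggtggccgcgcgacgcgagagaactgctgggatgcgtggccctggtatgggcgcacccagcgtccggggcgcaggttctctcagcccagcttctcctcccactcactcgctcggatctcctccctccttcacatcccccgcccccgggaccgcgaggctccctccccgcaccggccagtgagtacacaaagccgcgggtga
FGF5, inner start: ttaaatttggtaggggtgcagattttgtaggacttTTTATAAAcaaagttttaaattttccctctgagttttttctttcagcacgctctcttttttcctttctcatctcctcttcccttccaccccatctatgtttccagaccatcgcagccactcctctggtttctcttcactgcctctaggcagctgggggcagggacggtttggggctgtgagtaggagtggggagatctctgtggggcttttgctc
FGF14: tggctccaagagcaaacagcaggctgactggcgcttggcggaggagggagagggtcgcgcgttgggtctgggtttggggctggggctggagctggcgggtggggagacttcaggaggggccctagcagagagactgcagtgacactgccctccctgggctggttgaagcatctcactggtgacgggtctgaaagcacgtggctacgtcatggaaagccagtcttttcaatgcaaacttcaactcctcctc
FGFBP3: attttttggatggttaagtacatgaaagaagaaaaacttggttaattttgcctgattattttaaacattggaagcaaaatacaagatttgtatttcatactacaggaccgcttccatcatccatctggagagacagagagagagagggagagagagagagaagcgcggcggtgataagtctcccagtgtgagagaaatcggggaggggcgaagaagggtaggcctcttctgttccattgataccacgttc
The motifs searched on both strands were CCGGAA (an ETS core), TGANTCA (an AP-1 site), TATAAA and the CArG box. In the 30 windows of 16 tested genes, CCGGAA occurred in 2 (SPRY1 and SPRY2), TGANTCA in 2 (FGF1 and SPRED3) and TATAAA in 2 (FGF5 and SPRED2), each 6.67% of these windows, against 14.5%, 6.54% and 10.7% of 34961 windows of all genes. The CArG box occurred in none of the 30, against 1.16% of all. The inner FGF5 window holds TATAAA on each strand, as overlapping matches that begin 215 and 213 bases upstream of the start. In SPRED3 the match TGACTCA begins 60 bases upstream of the start. A match is only a run of letters and does not show that a factor binds. FGFR1, DUSP4, ETV4 and ETV5 had no entry.

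Genes outside the family that FGF signalling runs through were examined in 5 lists of 81 genes, of which 70 were tested. Across them, 10 were called higher and 5 lower, beside 5.45% and 7.14% of all tested genes. At an adjusted p under 0.05 it was 25 and 20, beside 20.7% and 20.9% of all tested genes. Among 16 other ERK-responsive genes, 11 rose and 1 fell at an adjusted p under 0.05, beside the same 20.7% and 20.9%, and 5 and 1 of them were called, with a median log2 fold change of 0.45. Of these, CCND1, which drives entry into the cell cycle, rose from 137 ± 6.25 to 388 ± 6.51 CPM (SD, n = 3; log2 fold change 1.498, adjusted p = 8.74e-10, edgeR). The receptor kinase gene EPHA2 rose from 189 ± 18.1 to 443 ± 9.06 CPM (1.23, adjusted p = 2.01e-08), and SPHK1, a sphingosine kinase, from 42.8 ± 3.23 to 133 ± 11.5 CPM (1.63, adjusted p = 5.13e-09). FOS, an immediate early gene, was the only gene of the list that passed in the lower direction, from 216 ± 35.6 to 100.03 ± 4.27 CPM (-1.11, adjusted p = 7.99e-07). The 22 adaptors and RAS-MAPK core genes had no call, 6 rises and 4 falls at an adjusted p under 0.05, near the 20.7% and 20.9% of all tested genes, and a median of -0.06.

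FGFs need heparan sulfate to bind their receptors, and the genes of its synthesis had the widest range of the 5 lists. Of 15 tested genes of heparan sulfate synthesis and editing, 3 were called higher and 1 lower, beside 5.45% and 7.14% of all tested genes (5 and 6 at an adjusted p under 0.05, where 20.7% and 20.9% of all tested genes passed), and the log2 fold changes ran from -5.17 to 5.15. SULF1, which removes sulfate from heparan sulfate outside the cell and is known to lower FGF signalling, fell from 36.1 ± 4.17 to 1.01 ± 0.447 CPM (SD, n = 3; log2 fold change -5.17, adjusted p = 2.31e-10, edgeR). The sulfotransferase gene HS3ST1 went from 2, 2 and 0 counts to 36, 61 and 65. Its KO mean was 17.2-fold the level of 3 counts per control library, a limit that holds only for a count of 0. HS3ST3A1 and HS3ST3B1, of the same enzyme family, had log2 fold changes of 3.60 and 1.10. HS3ST1 and HS3ST3A1 passed the filter on low counts only through the KO libraries, so their calls are no independent support for a rise. Among the 11 tested core proteins, 2 rose and 6 fell at an adjusted p under 0.05, beside 20.7% and 20.9% of all tested genes. SDC1, syndecan 1, rose from 207 ± 24.1 to 490 ± 52.0 CPM (1.24, adjusted p = 1.15e-07, edgeR), and GPC6, glypican 6, fell from 97.3 ± 17.6 to 41.2 ± 2.29 CPM (-1.24, adjusted p = 7.67e-07, edgeR). Of 6 tested membrane modulators, 1 rose and 3 fell by the same rule and beside the same shares. IL17RD, an FGF antagonist, rose from 0.764 to 2.48 CPM (1.69, adjusted p = 0.0023, edgeR), while L1CAM fell from 21.2 ± 3.54 to 1.68 ± 0.573 CPM (-3.65, adjusted p = 7.36e-09). ANOS1, the X-linked gene of Kallmann syndrome, was at 5.03 ± 2.18 and 0.299 ± 0.30 CPM, and passed the filter only through the control libraries.

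**Figure D5:**
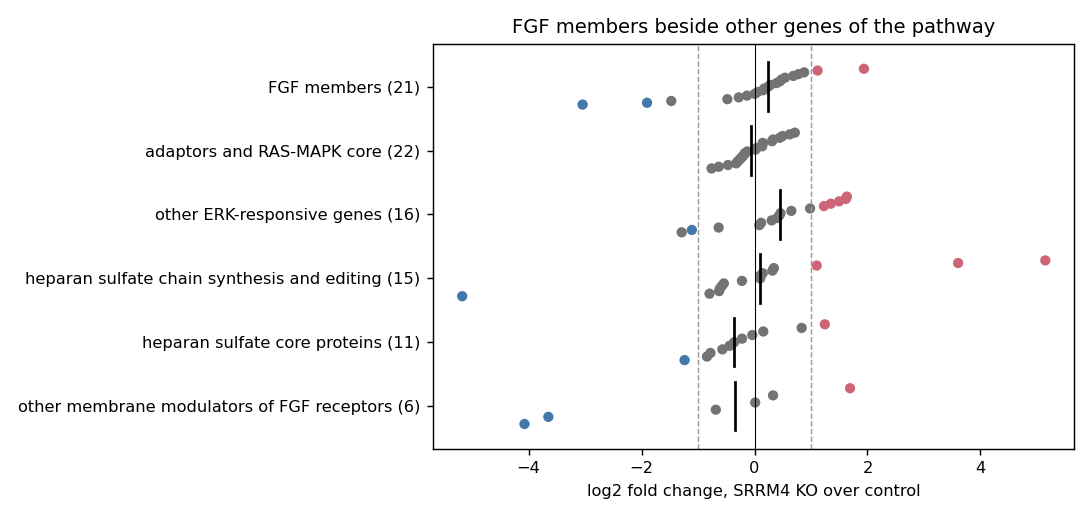
Log2 fold change (SRRM4 KO over control) of the 21 tested FGF genes and of the tested genes of 5 related lists, 1 point a gene, red for called higher and blue for called lower, with a black line at each median and dashed lines at 1 and -1. The medians run from -0.36 for heparan sulfate core proteins to 0.45 for ERK-responsive genes, and the widest spread is among the heparan sulfate enzymes.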

How the data were processed

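RNA from UE7T-9 control cells (3 libraries) and SRRM4 KO cells (3 libraries) was sequenced by mRNA-seq without strand information. The deposited table holds unnormalized read counts for 58735 genes, as the authors made it. The submitters' processing notes name HISAT2 2.0.5, featureCounts 1.5.0-p3 and DESeq2, without roles, and the genome build is not given in the sources used here. Coordinates of the table match GENCODE release 29 (GRCh38) for 42 of the 43 genes. Samples were grouped by their titles and genotypes.

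Counts were tested with edgeR 4.0.16 (R 4.3.3): its quasi-likelihood test was run on TMM-normalized counts with a prior count of 0.125, and p-values of the 15341 genes that passed filterByExpr were adjusted by Benjamini-Hochberg. Called genes had a log2 fold change past 1 at an adjusted p under 0.05. The SE is the absolute log2 fold change over the root of F. CPM use TMM-scaled library sizes, and RPKM use the gene lengths in the table. Sequences are RefSeq (GRCh38.p14), without chromosomes 8 and Y. The procedures were tested on simulated data. Some marker genes are not reported here. The named genes were all members, and up to 3 called genes per direction and list, by mean CPM. The members and lists were chosen with earlier results of these data known. Alternatives were other size factors, filters and tests, DESeq2 1.42.0, a replicate block, centring by chromosome and leaving out each library.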

Additional observations from a re-analysis of the deposited data

How the results depend on the processing

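The calls of DUSP4 and FGF14 held under every alternative tried. All 4 called genes were also called with DESeq2 size factors, upper-quartile normalization, DESeq2, protein-coding genes only and centring by chromosome. Centring changes the fold change and not the p-value. The median log2 fold change of a chromosome ran from -0.34 (chromosome 18) to 0.32 (X). Centring lowered FGFR1 to 0.089 and ETV5 to 0.37, and raised SPRED2 to 0.40. Without a filter on low counts 4 FGF genes were higher (DUSP4, FGFBP3, FGF10 and FGF13) and 3 lower (FGF14, FGF7 and FGF17), with at least 10 counts in every library 1 was lower, since FGF7 was not tested, and the test against the fold threshold (glmTreat) left 1 higher and 1 lower. Without a fold threshold 9 were higher. With each library left out, 1 to 2 were higher and 2 to 3 lower. Over all genes, glmTreat called 360 higher and 577 lower, and no fold threshold called 3171 and 3213, against 836 and 1096. In the lists, no fold threshold gave 25 higher and 20 lower, and glmTreat 3 lower. The log2 fold change of SPRED1 (0.00) changed sign, at -0.027 with upper quartiles, -0.014 with at least 10 counts, -0.011 with protein-coding genes only, -0.063 with centring by chromosome and -0.054 to 0.056 with libraries left out. SPRY2 lay between -0.0088 and 0.10 with libraries left out. The replicate numbers do not pair the samples (correlations of same-numbered deviations -0.05, 0.08 and -0.05). With the replicate number as a block, 2 FGF genes were called higher and 2 lower, and 842 and 1093 of all genes. Depth limits FGF7, FGF10, FGF13 and FGF18, which have fewer than 10 counts in each library of 1 group.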
